A study of Mus musculus with 59 samples.

Results

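The 10 genes described here encode the V(D)J recombinase (Rag1, Rag2), the terminal transferase TdT (Dntt) and the core of classical non-homologous end joining (Xrcc5, Xrcc6, Prkdc, Dclre1c, Lig4, Xrcc4 and Nhej1). They were chosen by name for their roles, by a rule that uses no measured value although earlier results of these data were known, and are 10 of the 24728 genes listed in all 5 mRNA libraries. Poly(A) RNA was sequenced from immature B cells sorted ex vivo from mouse bone marrow, by markers that included surface B220 and IgM and the lack of IgD. In the cross that the paper describes, the mutant allele lay on the C57BL/6 Igh locus, which encodes IgMb. The other allele was the unmutated 129/Sv Igh locus, which encodes IgMa, so that the sorted IgMb cells had used the mutant allele. The 2 control libraries were from Igh Δ890/+ mice, in which a distal region of the VH gene cluster with all PAIR elements was deleted. The 3 other libraries were from mice with the Igh P4V allele, in which the PAIR4 element and the associated enhancer V8.7E were inserted at the point of that deletion, so that both groups carried the deletion. The labels give the latter genotype as homozygous, whereas the cross described in the paper is heterozygous for P4V, and the group is therefore called Igh P4V here. If the labels hold, zygosity and the 129/Sv allele differ between the groups together with the insertion. Mouse age is not given in the sources used here, and no library of unmutated mice entered the comparison. Libraries are numbered in the order of their records.

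RAG1 and RAG2 form the endonuclease that cuts DNA between antigen receptor gene segments and their recombination signal sequences, leaving hairpin coding ends. The Ku heterodimer binds the ends and recruits the kinase DNA-PKcs with the nuclease Artemis, which opens the hairpins, and DNA ligase IV with XRCC4 and XLF seals the joint, to which TdT can add nucleotides without a template. Immature B cells have completed VH-DJH recombination, but cells with a self-reactive receptor can continue light-chain rearrangement at this stage, a process called receptor editing, whereas TdT is known as an enzyme of pro-B cells.

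The promoters of the 3 lymphoid genes are shown beside that of Xrcc6, the most abundant of the 10 mRNAs, because they differed in CpG content. Sequences are from RefSeq (GRCm38.p6) and cover the 250 bases before the annotated start in the direction of the gene, namely chr2:101649533-101649782 (minus strand) for Rag1, chr2:101624462-101624711 (plus strand) for Rag2, chr19:41029025-41029274 (plus strand) for Dntt and chr15:82016119-82016368 (plus strand) for Xrcc6. Capitals mark each CpG dinucleotide.
Rag1: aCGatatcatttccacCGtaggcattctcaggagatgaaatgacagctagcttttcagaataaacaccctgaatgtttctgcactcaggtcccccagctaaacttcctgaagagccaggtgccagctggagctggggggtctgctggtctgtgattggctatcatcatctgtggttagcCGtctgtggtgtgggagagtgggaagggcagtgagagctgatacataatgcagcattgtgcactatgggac
Rag2: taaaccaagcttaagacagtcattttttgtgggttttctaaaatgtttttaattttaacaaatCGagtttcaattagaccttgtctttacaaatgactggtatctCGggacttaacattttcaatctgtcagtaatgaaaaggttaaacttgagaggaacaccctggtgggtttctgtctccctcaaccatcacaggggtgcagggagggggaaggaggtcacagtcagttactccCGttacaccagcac
Dntt: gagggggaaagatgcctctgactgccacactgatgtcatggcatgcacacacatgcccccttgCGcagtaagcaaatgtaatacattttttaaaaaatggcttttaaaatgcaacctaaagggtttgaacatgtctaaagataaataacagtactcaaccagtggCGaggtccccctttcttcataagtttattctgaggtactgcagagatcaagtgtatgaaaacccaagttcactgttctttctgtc
Xrcc6: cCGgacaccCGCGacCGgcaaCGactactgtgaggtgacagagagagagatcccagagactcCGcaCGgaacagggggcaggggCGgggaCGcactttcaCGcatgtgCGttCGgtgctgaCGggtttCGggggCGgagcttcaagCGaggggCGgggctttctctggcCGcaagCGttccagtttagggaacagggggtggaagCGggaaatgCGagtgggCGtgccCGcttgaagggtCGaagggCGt

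The stretches of Rag1 and Rag2 held 3 CpG dinucleotides each and that of Dntt held 2, compared with 25 in the stretch of Xrcc6. With the 50 bases after the start included, 9 of the 10 genes had a window in the table, and Prkdc had none. Over all 32851 windows of 300 bases, the quartiles were 3, 7 and 20 CpG dinucleotides. The windows of Rag1 (3), Rag2 (3) and Dntt (2) were at or below the lower quartile, those of Xrcc5 (9), Nhej1 (10) and Dclre1c (12) were near the middle, and those of Xrcc6 (30), Lig4 (30 and 29 at its 2 annotated starts) and Xrcc4 (31) were above the upper quartile. The sequence GGGCGG, the core of GC boxes, which itself holds a CpG, was searched on both strands and found in 35.7% of all windows. It occurred 3 times in the windows of Xrcc6 and Xrcc4, 2 times in those of Nhej1 and of the second Lig4 start, and 1 time in that of Dclre1c, but not in those of Rag1, Rag2, Dntt, Xrcc5 and the first Lig4 start. The TATA box sequence TATAAA (13.6% of all windows) and the forkhead sequence GTAAACA (3.65%) were found on neither strand in any of these windows.

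mRNA levels are given as TPM, the share of a gene among all transcripts after correction for gene length, which can thus be compared between genes. The sorted cells had abundant mRNA of Ighm (15339 to 19530 TPM), Igkc (18716 to 22370 TPM) and Cd79a, and summed T cell markers were between 4.97 and 7.85 TPM. The second Igh P4V library had the highest TPM of 4 of 6 pro-B and large pre-B cell markers, Dntt among them (summed without Dntt: 141 TPM, compared with 46.9 to 57.3 TPM in the other libraries) and of 6 of 6 cycling markers (256 TPM, compared with 155 to 192 TPM). The other library that stood apart, the third of Igh P4V, had the highest TPM of 6 of 6 myeloid markers, with a sum of 5693 TPM, compared with 1745 to 2894 TPM in the others. No 2 libraries were identical, and the median absolute log2 difference per gene between 2 libraries was 0.0870 to 0.152.

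All 10 genes were expressed, and none was called as different between Igh P4V and Igh Δ890/+ cells. With limma on log2(TPM + 1) and Benjamini-Hochberg adjustment over the 11681 genes that averaged 1 TPM or more, 0 of 10 genes reached an adjusted p of 0.05, and 0 of 10 had an unadjusted p under 0.05. Of all genes tested, 1 (0.00856%), the VH gene Ighv1-82, was called and 522 (4.47%) had an unadjusted p under 0.05, which were higher in Igh P4V cells for 1.93% and lower for 2.54% of the genes tested. The TPM ranges of the 2 genotypes overlapped for each of the 10 genes, whereas they did not overlap for 23.2% of all genes tested (6.94% higher and 16.2% lower in Igh P4V cells). The log2 change was below 0 for 9 of 10 genes, with a median of -0.11, compared with 60.7% of all genes tested and a median of -0.03. When each library was shifted to the same median, 8 of 10 genes and 46.8% of all genes tested were below 0.

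**Figure D1:**
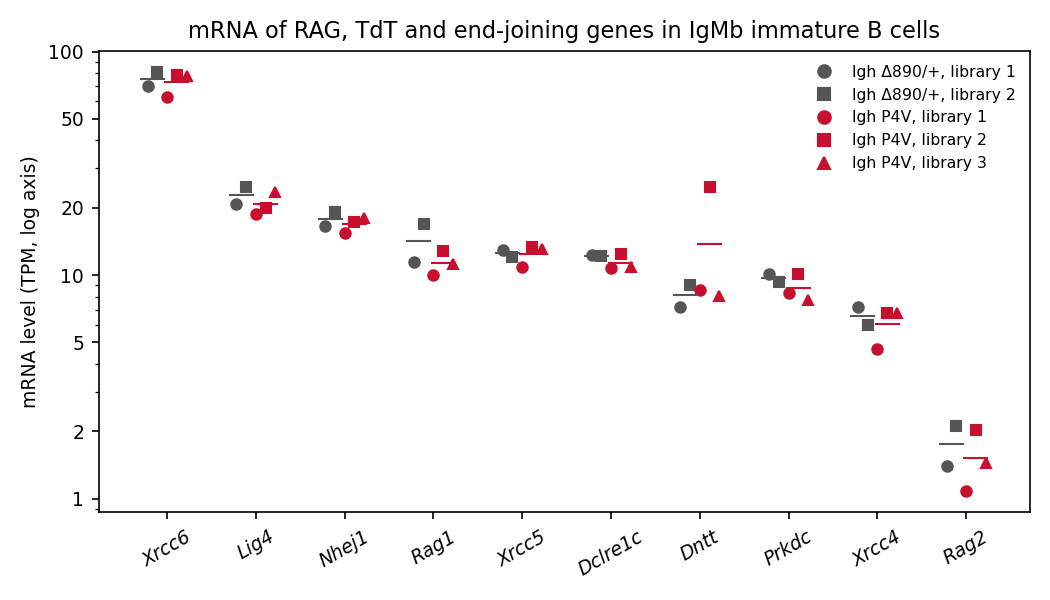
TPM of each gene (log axis) in the 2 Igh Δ890/+ libraries (grey) and the 3 Igh P4V libraries (red), ordered by the mean over the 5 libraries, with a bar at each group mean. Xrcc6 lies between 62.3 and 81.2 TPM and Rag2 between 1.08 and 2.12 TPM, and the second Igh P4V library stands apart for Dntt at 24.8 TPM.

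The levels spanned a 45.9-fold range. By mean TPM ± SD over the 5 libraries, the order was Xrcc6 (73.9 ± 7.73), Lig4 (21.6 ± 2.53), Nhej1 (17.3 ± 1.41), Rag1 (12.5 ± 2.71), Xrcc5 (12.5 ± 1.02), Dclre1c (11.7 ± 0.801), Dntt (11.5 ± 7.45), Prkdc (9.10 ± 1.08), Xrcc4 (6.27 ± 0.999) and Rag2 (1.61 ± 0.442). Xrcc6 was above Lig4 in every library, and Rag2 was below Xrcc4 and Xrcc4 below Prkdc with no overlap of their ranges. The ranges of all other neighbours in this order overlapped. Within each library, however, Lig4 was above Nhej1 (1.16- to 1.31-fold) and Nhej1 above Rag1 (1.13- to 1.61-fold) in 5 of 5 libraries, whereas the order of the neighbours from Rag1 to Prkdc changed between libraries. Rag2 was at percentile 5.60 and Xrcc6 at percentile 77.7 of the mean levels of the genes tested. In bulk RNA, fewer cells that express a gene and less mRNA per cell cannot be told apart.

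Rag1, the subunit that carries the active site of the recombinase, had 11.5 and 16.98 TPM in the Igh Δ890/+ libraries and 9.99, 12.8 and 11.2 TPM in the Igh P4V libraries. Its highest value was in the second Igh Δ890/+ library, whereas the other lay among the Igh P4V libraries. The mean was 14.2 ± 3.91 TPM (SD, n = 2) and 11.3 ± 1.43 TPM (SD, n = 3), respectively, and the log2 change was -0.29 (SE 0.18, 95% interval -0.70 to 0.13, limma adjusted p = 0.893). The interval corresponds to 0.614- to 1.10-fold on the TPM + 1 scale. The difference rested on the second Igh Δ890/+ library, since the log2 change was -0.02 without it and -0.55 (adjusted p = 1.00) without the first. The unadjusted p in the latter case was 0.0162, but the Igh Δ890/+ arm then held a single library.

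Rag2, the essential partner of RAG1, which binds trimethylated lysine of histone H3, was the least abundant of the 10 mRNAs, at 1.403 and 2.12 TPM in Igh Δ890/+ cells and 1.08, 2.02 and 1.44 TPM in Igh P4V cells. As for Rag1, the second Igh Δ890/+ library was highest and the first Igh P4V library lowest. The genotypes overlapped, since the second Igh P4V library lay above the first Igh Δ890/+ library. The log2 change was -0.14 (SE 0.21, 95% interval -0.64 to 0.36, adjusted p = 0.935), and it was -0.33 without the first and 0.05 without the second Igh Δ890/+ library. Rag1 exceeded Rag2 in every library, with TPM ratios of 8.16, 8.01, 9.29, 6.36 and 7.75 in the order above (7.91 ± 1.05, SD, n = 5). Within genotypes, the SD of log2(TPM + 1) of Rag1 and Rag2 was at percentiles 90.1 and 91.2 of all genes tested, respectively. Il2ra, a marker of small pre-B cells, had 23.3, 29.1, 19.9, 23.99 and 23.8 TPM in the order above. Like both RAG genes, it was highest in the second Igh Δ890/+ library and lowest in the first Igh P4V library. The part of small pre-B cells in the RAG values was not tested.

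Rag1 and Rag2 are neighbours on chromosome 2 and are transcribed towards each other. Their profiles over the 5 libraries were compared by the root-mean-square difference of log2(TPM + 1) after centring each gene on its mean. Rag2 was the 12th nearest of 11680 genes to Rag1, at a distance of 0.108, compared with a median distance of 0.253. The nearest were Dimt1 (0.091), Rpl30 (0.092) and Mid1 (0.093). Rag1 was the 48th nearest gene to Rag2 (median distance 0.234), after Neto2 (0.060), Ptgr1 (0.069) and Glrx3 (0.070) as the nearest 3. The 5 libraries share the sort and protocol, and these distances are a description without a test. In the GENCODE vM1 annotation, exons of B230118H07Rik (Nwc), which was listed at 0.219 to 0.778 TPM, overlap 80 exonic bases of Rag1 on the same strand and 208 of Rag2 on the opposite strand, which is 1.21% and 6.08% of their exonic bases.

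Dntt was the only one of the 10 genes with a higher mean in Igh P4V cells, which rested on a single library. TdT mRNA was at 7.20 and 9.06 TPM in Igh Δ890/+ cells and at 8.57, 24.8 and 8.09 TPM in Igh P4V cells. The second Igh P4V library was thus 2.74-fold above the next highest library, and the other 4 libraries lay close together. The mean was 8.13 ± 1.31 TPM (SD, n = 2) in Igh Δ890/+ and 13.8 ± 9.52 TPM (SD, n = 3) in Igh P4V cells, with a log2 change of 0.53 (SE 0.44, 95% interval -0.52 to 1.57, adjusted p = 0.893). Without the second Igh P4V library, the Igh P4V mean was 8.33 ± 0.334 TPM (SD, n = 2) and the log2 change was 0.04 (adjusted p = 0.967). The within-genotype SD of Dntt was at percentile 99.1 of all genes tested.

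The same library was also high for the surrogate light chain genes of pro-B and large pre-B cells. Igll1, which encodes λ5, had 18.3, 19.3, 19.8, 73.8 and 17.97 TPM in the order above, and was 3.72-fold above the next highest library in the second Igh P4V library. Vpreb1, which encodes the partner of λ5, had 10.4, 12.9, 11.1, 39.1 and 11.6 TPM, and the related Vpreb2 had 1.03, 0.986, 1.16, 3.90 and 1.68 TPM. These 3 genes and Dntt were thus highest in the same library, whereas Kit was highest in the third Igh P4V library (2.62 TPM) and Il7r, the receptor of IL-7, in the second Igh Δ890/+ library (23.0 TPM, compared with 22.0 TPM in the second Igh P4V library). The ratio of Dntt to Igll1 was between 0.336 and 0.468 in all 5 libraries, while that of Dntt to Rag1 was 1.93 in the second Igh P4V library and 0.533 to 0.858 in the others. Of all genes tested, Vpreb1 (0.093), Gfra2 (0.164) and Igll1 (0.186) were nearest to Dntt by the distance used for the RAG genes, compared with a median of 0.611. This comparison was chosen after the values were seen and restates the high value of the second Igh P4V library. Rag1 (12.8 TPM) and Rag2 (2.02 TPM) were not highest in this library, but only the second Igh Δ890/+ library (16.98 and 2.12 TPM) was above it. The part of other cell stages or of cycling cells in the Dntt value was not tested.

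**Figure D2:**
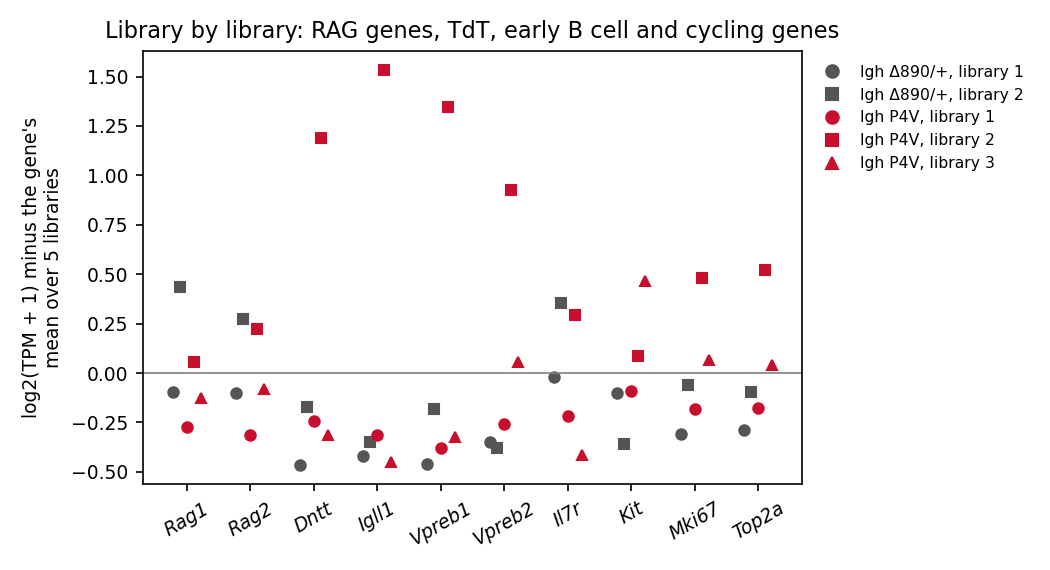
Difference of log2(TPM + 1) in each library from the mean of that gene over the 5 libraries, for the RAG genes, Dntt, early B cell genes and 2 cycling genes (grey, Igh Δ890/+; red, Igh P4V; symbols, libraries). The second Igh P4V library (red squares) lies above all others for Dntt, Igll1, Vpreb1, Vpreb2, Mki67 and Top2a, but not for Rag1, Rag2, Il7r or Kit.

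The 2 Ku subunits differed in level. Xrcc6 (Ku70) had 69.8 and 81.2 TPM in Igh Δ890/+ cells and 62.3, 78.2 and 78.0 TPM in Igh P4V cells, whereas Xrcc5 (Ku80) had 12.97 and 12.0 TPM compared with 10.9, 13.4 and 13.1 TPM. Both were lowest in the first Igh P4V library. The other libraries of the 2 genotypes were intermingled for Xrcc6. For Xrcc5, the other Igh P4V libraries lay above both Igh Δ890/+ libraries. The ratio of Xrcc6 to Xrcc5 was 5.39, 6.76, 5.72, 5.84 and 5.96 in the order above, although the encoded proteins act as a heterodimer. The log2 change was -0.06 (95% interval -0.35 to 0.24) for Xrcc6 and -0.01 (-0.28 to 0.26) for Xrcc5, and it changed sign when single libraries were left out, between -0.16 (without the first Igh Δ890/+ library) and 0.05 (without the second) for Xrcc6 and between -0.06 (without the second Igh Δ890/+ library) and 0.08 (without the first Igh P4V library) for Xrcc5. Exons of Pppde2, on the opposite strand, overlap 7.69% of the exonic bases of Xrcc6, and the use of strand in counting is not given in the sources used here.

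Prkdc, which encodes the catalytic subunit of DNA-PK, had 10.1 and 9.28 TPM in Igh Δ890/+ cells and 8.28, 10.1 and 7.73 TPM in Igh P4V cells. Dclre1c, which encodes Artemis, had 12.3 and 12.2 TPM compared with 10.8, 12.4 and 10.9 TPM. For both genes, 2 of the 3 Igh P4V libraries were below both Igh Δ890/+ libraries. The second Igh P4V library was nearly level with the higher Igh Δ890/+ library (1.003-fold for Prkdc and 1.006-fold for Dclre1c). Dclre1c had the lowest coefficient of variation of the 10 genes (6.85%). The log2 changes of -0.14 for Prkdc (95% interval -0.45 to 0.16) and -0.10 for Dclre1c (-0.33 to 0.13) moved to -0.25 and -0.16 without the second Igh P4V library, with an adjusted p of 0.788 for both. The change of Prkdc was -0.09 without the first Igh Δ890/+ library and -0.07 without the third Igh P4V library. Exons of Suv39h2 (1.86 to 2.55 TPM) overlap 3.83% of the exonic bases of Dclre1c on the opposite strand.

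The 3 genes of the ligation step also overlapped between genotypes. Lig4, which encodes the ligase of this pathway, had 20.8 and 24.9 TPM in Igh Δ890/+ cells and 18.8, 19.97 and 23.6 TPM in Igh P4V cells. Its binding partner Xrcc4 was lower in every library, at 7.18 and 5.96 TPM compared with 4.66, 6.74 and 6.79 TPM, with a ratio of Lig4 to Xrcc4 between 2.90 and 4.17. Nhej1, which encodes XLF, had 16.5 and 19.2 TPM compared with 15.5, 17.2 and 17.95 TPM. The second Igh Δ890/+ library was highest for Lig4 and Nhej1, and the first Igh P4V library was lowest for all 3 genes. The log2 changes were -0.13 (95% interval -0.43 to 0.16) for Lig4, -0.11 (-0.52 to 0.30) for Xrcc4 and -0.08 (-0.33 to 0.17) for Nhej1. These values also rested on single libraries. The change of Lig4 was -0.25 without the first and -0.01 without the second Igh Δ890/+ library, that of Xrcc4 -0.23 without the second Igh Δ890/+ and 0.04 without the first Igh P4V library, and that of Nhej1 -0.18 without the first and 0.03 without the second Igh Δ890/+ library. Exons of Tmem167 (8.80 to 9.89 TPM) overlap 2.66% of the exonic bases of Xrcc4 on the opposite strand.

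For the 7 end-joining genes, the highest library exceeded the lowest by 1.15- to 1.54-fold, and the limma adjusted p was between 0.895 and 0.992. On the TPM + 1 scale, the narrowest 95% interval of these genes was that of Dclre1c (0.794- to 1.09-fold) and the widest that of Xrcc4 (0.697- to 1.23-fold). The intervals of Rag2 and Dntt reached from 0.641- to 1.28-fold and from 0.699- to 2.98-fold, respectively. The first Igh P4V library was lowest for 8 of the 10 genes, compared with 23.9% of all genes tested, and the second Igh Δ890/+ library was highest for 5 of 10, compared with 19.5%. No gene of the 10 was highest in the first or in the third Igh P4V library, compared with 17.2% and 22.1% of all genes tested, respectively.

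**Figure D3:**
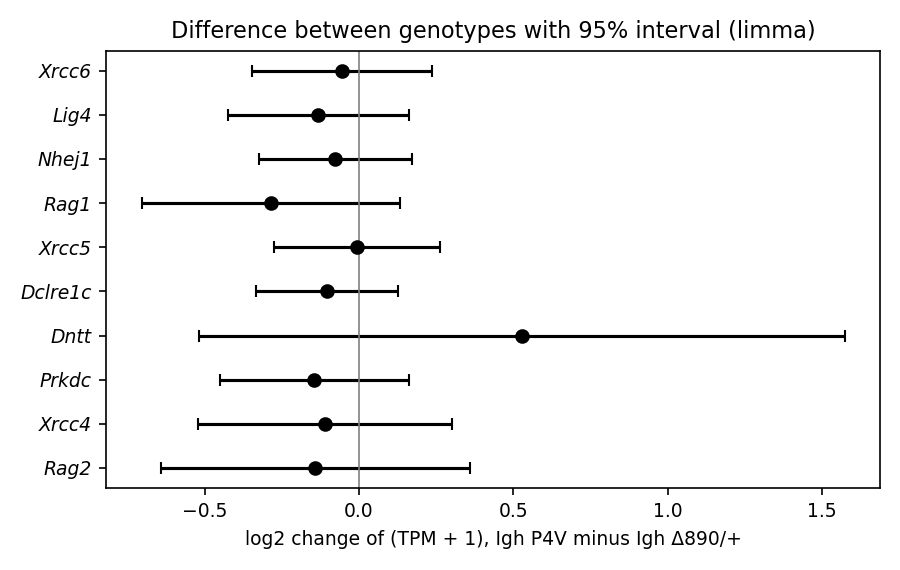
Log2 change of TPM + 1 between Igh P4V and Igh Δ890/+ cells for each gene (points) with its 95% interval from limma (bars). Every interval includes 0, and that of Dntt is the widest, from -0.52 to 1.57.

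Genes that act with these 10 were examined in 5 lists, none of which held a gene that passed the adjusted threshold. Of 7 RAG co-factors, 1 had an unadjusted p under 0.05 (4.47% of all genes tested), the high-mobility group gene Hmgb2, whose protein bends DNA in the RAG complex. Hmgb2 had 68.9 and 74.1 TPM in Igh Δ890/+ cells and 78.1, 111 and 98.1 TPM in Igh P4V cells, with no overlap (log2 change 0.40, limma adjusted p = 0.893). The importin gene Kpna2 had 14.02 and 14.3 TPM compared with 15.6, 18.9 and 16.01 TPM, also with no overlap (log2 change 0.23, and 0.15 without the second Igh P4V library). The TPM ranges thus did not overlap for 2 of 7 co-factors, compared with 23.2% of all genes tested. Kpna1 and Dcaf1 (Vprbp), the latter of which encodes the RAG1-binding ubiquitin ligase component VprBP, had log2 changes of -0.01 and -0.06, and that of Dcaf1 was between -0.12 and -0.01 when the second or the first Igh P4V library was left out. The median of the list was 0.02.

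Of the further end-joining genes, 9 of 10 were tested (Paxx was not matched), 0 of which had an unadjusted p under 0.05. The X-family polymerase gene Polm, which encodes a relative of TdT, had 275 and 276 TPM compared with 263, 241 and 237 TPM (log2 change -0.16), and the RecQ helicase gene Wrn had a log2 change of -0.17, which was -0.08 without the third Igh P4V library. Aptx and Poll, which encode the end-processing enzyme aprataxin and DNA polymerase λ, were at log2 changes of 0.09 and 0.07, which rested on the third Igh P4V library, since they were 0.0045 and 0.01 without it. The TPM ranges did not overlap for 1 of these 9 genes, Polm, compared with 23.2% of all genes tested. The median log2 change was 0.01.

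Of the 18 DNA damage response genes, 1 had an unadjusted p under 0.05 (4.47% of all genes tested), the histone variant gene H2afx, with 293 and 311 TPM in Igh Δ890/+ and 347, 386 and 368 TPM in Igh P4V cells (log2 change 0.28, adjusted p = 0.893). Nbn, a subunit of the MRN complex, had a log2 change of 0.29, compared with -0.15 for Rif1, a 53BP1 effector, and -0.20 for the kinase gene Atm, and the change of Rif1 was -0.30 without the second and -0.07 without the third Igh P4V library. Of the 8 alternative end-joining genes, 1 had an unadjusted p under 0.05 (4.47% of all genes tested). This gene, the replicative ligase gene Lig1, had 36.3 and 37.5 TPM compared with 44.0, 62.1 and 45.9 TPM (log2 change 0.43, adjusted p = 0.893), and it was 0.28 without the second Igh P4V library. The nuclease gene Exo1 had a log2 change of 0.30, which was 0.19 without the second Igh P4V library. Rbbp8 (CtIP) had a log2 change of 0.06, which was 0.02 without the second Igh P4V or the first Igh Δ890/+ library and 0.10 without the first Igh P4V or the second Igh Δ890/+ library, and Lig3 had one of -0.08. Hmgb2, Kpna2, H2afx, Lig1, Nbn and Exo1 were, like the cycling markers, highest in the second Igh P4V library, and the part of cycling cells in these values was not tested. The TPM ranges did not overlap for 3 of the 18 DNA damage response genes and for 5 of the 8 alternative end-joining genes (Lig1, Exo1, Lig3, Fen1 and Xrcc1, the last 2 named after their values were seen), compared with 23.2% of all genes tested. The log2 change was below 0 for 12 of 18 and 1 of 8 genes, respectively, compared with 60.7% of all genes tested, and the median was -0.01 for the DNA damage response and 0.09 for alternative end joining.

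Of 24 of 25 listed regulators of the RAG genes that passed the filter, 2 had an unadjusted p under 0.05, compared with 4.47% of all genes tested, and both were lower in Igh P4V cells, compared with 2.54%. The forkhead gene Foxp1 had 254 and 254 TPM compared with 238, 224 and 211 TPM (log2 change -0.18), and Bach2, a transcriptional repressor of B cells, had 148 and 147 TPM compared with 129, 136 and 136 TPM (log2 change -0.15), both with an adjusted p of 0.893. Neither kept an unadjusted limma p under 0.05 with median scaling (0.103 for Foxp1 and 0.127 for Bach2) or without a trend in the variance moderation (0.0726 and 0.0846). The repressor gene Gfi1b and the stress gene Gadd45a had log2 changes of 0.18 and 0.09, respectively, the latter between -0.08 and 0.24 when the third or the first Igh P4V library was left out. The TPM ranges did not overlap for 11 of the 24 genes, compared with 23.2% of all genes tested, of which 9 were lower and 2 higher in Igh P4V cells, compared with 16.2% and 6.94%. The log2 change was below 0 for 16 of the 24 genes, compared with 60.7% of all genes tested, with a median of -0.04.

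**Figure D4:**
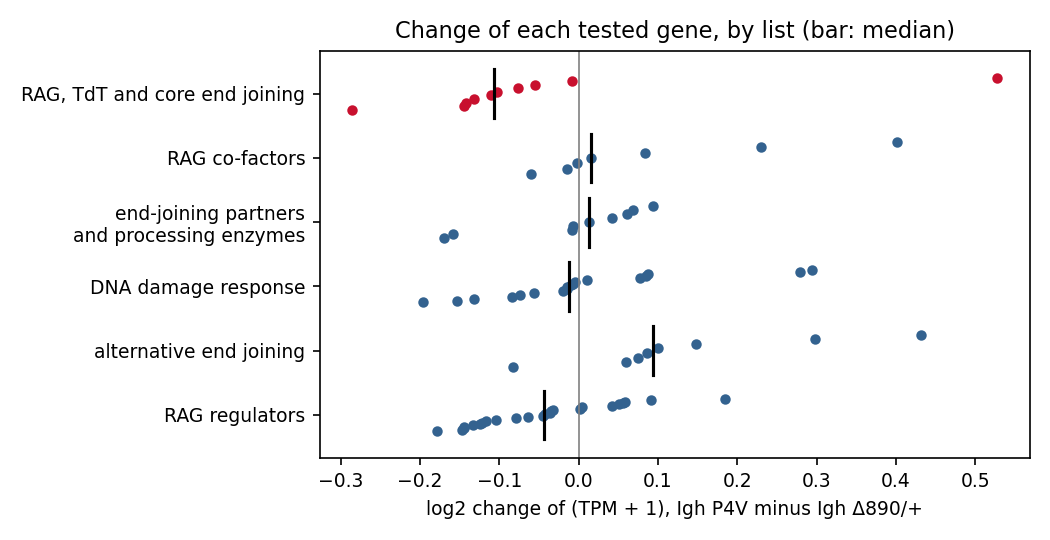
Log2 change of TPM + 1 (Igh P4V minus Igh Δ890/+) of each gene tested, by list, with a bar at the median of the list. The medians lie between -0.11 for the 10 genes (red) and 0.09 for alternative end joining, and Dntt (0.53) and Lig1 (0.43) have the highest values.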

How the data were processed

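mRNA of immature IgMb B cells was measured in 2 Igh Δ890/+ and 3 Igh P4V libraries, grouped by their labels. The study selected poly(A) RNA, primed cDNA with random hexamers, sequenced single reads, aligned them with TopHat, removed duplicates and counted reads per gene with featureCounts (version 1.5.0, per the processing notes). The authors deposited TPM values. The genome build for mRNA is not given in the sources used here. The TPM values keep no depth, so that the depth and counting error are unknown. The paper calls the libraries independent experiments, but the labels do not name separate mice, and p-values therefore measure the spread between these samples, which may be technical.

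In the Igh Δ890/+ libraries, 4 and 1 entries held no value and these genes were not used. Some genes, among them Dclre1c, Rpl30, Glrx3 and Suv39h2, were listed with a suffix added by the authors, whose meaning is not given in the sources used here. Genes that averaged 1 TPM or more were tested two-sided with limma 3.58.1 (lmFit, eBayes with trend, R 4.3.3) on log2(TPM + 1), which understates changes of low genes, with Benjamini-Hochberg adjustment and a threshold of 0.05. The script was tested on simulated data. Alternatives were the pseudocount (0.1, 5), the filter (none, 5 TPM), variance moderation, scaling, removal of immunoglobulin genes and leaving out each library.

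The 10 genes and all lists were chosen with earlier results of these data known. Named were the 10 genes, the 3 nearest genes to Rag1 and Rag2, and of each further list those called or, with none called, the 2 highest and 2 lowest log2 changes. Other genes named are markers, genes with overlapping exons and genes chosen after their values were seen. Promoter windows were taken from RefSeq and exon overlaps from GENCODE vM1. The VDJ-seq files were not used.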

Additional observations from a re-analysis of the deposited data

How the results depend on the processing

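None of the 10 genes was called under any of 14 alternatives. The number of all genes called was 1, and it was 0 with a pseudocount of 0.1 or 5, without a trend, with robust moderation, with quantile normalization and without immunoglobulin genes, and 2 without a filter. When each library was left out in turn it was between 0 and 4, where the arm left with 1 library took its spread from the other arm. It was 0 without the first Igh Δ890/+ or the first Igh P4V library, 2 without the second and 4 without the third Igh P4V library. The cause was not tested. Of the log2 changes of single genes under these alternatives, 404 kept their sign and their side of the threshold and 14 changed sign. Xrcc5 and Kpna1 turned to 0.030 and 0.024 with median scaling, and to 0.028 and 0.018 with quantile normalization. The other changes of sign came from leaving out 1 library, over which the log2 change was between -0.330 and 0.047 for Rag2, -0.059 and 0.078 for Xrcc5, -0.163 and 0.052 for Xrcc6, -0.227 and 0.041 for Xrcc4, -0.179 and 0.025 for Nhej1, -0.089 and 0.055 for Kpna1, and -0.080 and 0.242 for Gadd45a. The direction of these small changes thus depended on single libraries or on the scaling. Rag2 and Exo1 were not tested with a minimum of 5 TPM. No paired analysis was possible because the labels carry no replicate numbers shared by the 2 groups.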
